A study of Mus musculus with 15 samples.

Results

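The 9 genes described here encode parts of the renin-angiotensin system in the mouse kidney: Agt, Ren1, Ace, Agtr1a, Agtr1b, Enpep, Mme, Atp6ap2 and Nr3c2. They were chosen by name from the 17832 genes of the deposited table, and all 9 were found there. They and the related gene lists below were chosen with earlier results of these data known. RNA was taken from the kidneys of 22-week-old males of the C57BLKS/J strain, with 5 libraries in each of 3 groups. The first group had the m/m genotype and received the vehicle, 0.5% methylcellulose. The second had the db/db genotype, in which a mutation of the leptin receptor gene Lepr removes its long isoform and leads to obesity and diabetes, and received the same vehicle. The third was db/db and received dapagliflozin, an inhibitor of the glucose transporter SGLT2, at 1 mg/kg in 0.5% methylcellulose. The comparisons ask how diabetes of the db/db type, and the drug within it, go with the level of each gene. Nothing in the labels ties each library to an animal of its own, and the p-values then measure only how far the libraries spread, which may be technical.

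In the renin-angiotensin system, renin (Ren1) from the juxtaglomerular cells of the afferent arteriole cuts angiotensinogen (Agt) to angiotensin I, and angiotensin-converting enzyme (Ace) turns that into angiotensin II. Angiotensin II acts through the type 1 receptors (Agtr1a and Agtr1b in the mouse) on vessels, mesangium and tubules, and through aldosterone and the mineralocorticoid receptor (Nr3c2) on sodium transport in the distal nephron. Cell-surface peptidases of the proximal tubule and glomerulus, among them aminopeptidase A (Enpep) and neprilysin (Mme), cut the peptides further.

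Read depth split the libraries into sets that cut through the db/db vehicle group, so each comparison was made within a set. The high-read set, m/m 1 to 5 with db/db vehicle 1 to 3, held 14.8 to 16.4 M reads in genes, while the low-read set of db/db vehicle 4 and 5 and dapagliflozin 1 to 5 held 1.60 to 2.29 M. Among the db/db vehicle libraries themselves, 61.1% of the 12869 tested genes differed between the sets (limma, adjusted p under 0.05), so no level is compared across sets as a result. Genotype was read as db/db vehicle 1 to 3 against m/m 1 to 5, and drug as dapagliflozin 1 to 5 against db/db vehicle 4 and 5. The leptin receptor gene Lepr lay at 0.533 to 0.889 FPKM in the m/m libraries and at 0.430 to 1.60 FPKM in db/db vehicle 1 to 3. The db mutation changes splicing, so this gene-level value does not check the genotype label. Markers of proximal tubule summed to 4651 to 5189 FPKM in the m/m libraries, while fat markers stayed under 0.573 FPKM in every library, and the 2 adrenal markers in the table under 0.482 FPKM.

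Some pairs of low-read libraries were closer to each other than separate samples would be, also across the groups. For genes with a mean of 20 to 99 reads, a mean chi-square per gene of about 1 is what independent sampling of reads gives between libraries. It was 0.725 between db/db vehicle 5 and dapagliflozin 1, 0.756 between db/db vehicle 4 and dapagliflozin 5, 0.723 between dapagliflozin 2 and 3, and 0.885 between dapagliflozin 1 and 2. The other 17 of the 21 low-read pairs lay at 1.20 to 2.50, all those of dapagliflozin 4 among them. The lowest value among the high-read pairs was 1.84. Over all genes with at least 20 reads the lowest value in the low-read set was 0.998, between db/db vehicle 5 and dapagliflozin 1. There the other pairs stood at 1.02 (dapagliflozin 2 and 3), 1.66 (db/db vehicle 4 and dapagliflozin 5) and 1.73 (dapagliflozin 1 and 2). Among genes of 20 to 99 reads these pairs therefore differed by less than separate samplings would. Over all genes with at least 20 reads only the first did. The origin of this was not tested. Dapagliflozin 2 and 3 were counted as 1 sample, by their mean. Dapagliflozin 1 and 2 also lay below 1 (0.885) but were kept apart in the main fit, and averaging 1, 2 and 3 is among the alternatives. Drug values are also given without dapagliflozin 1 and 5. That fit sets dapagliflozin 4 and the mean of 2 and 3 against db/db vehicle 4 and 5.

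**Figure D1:**
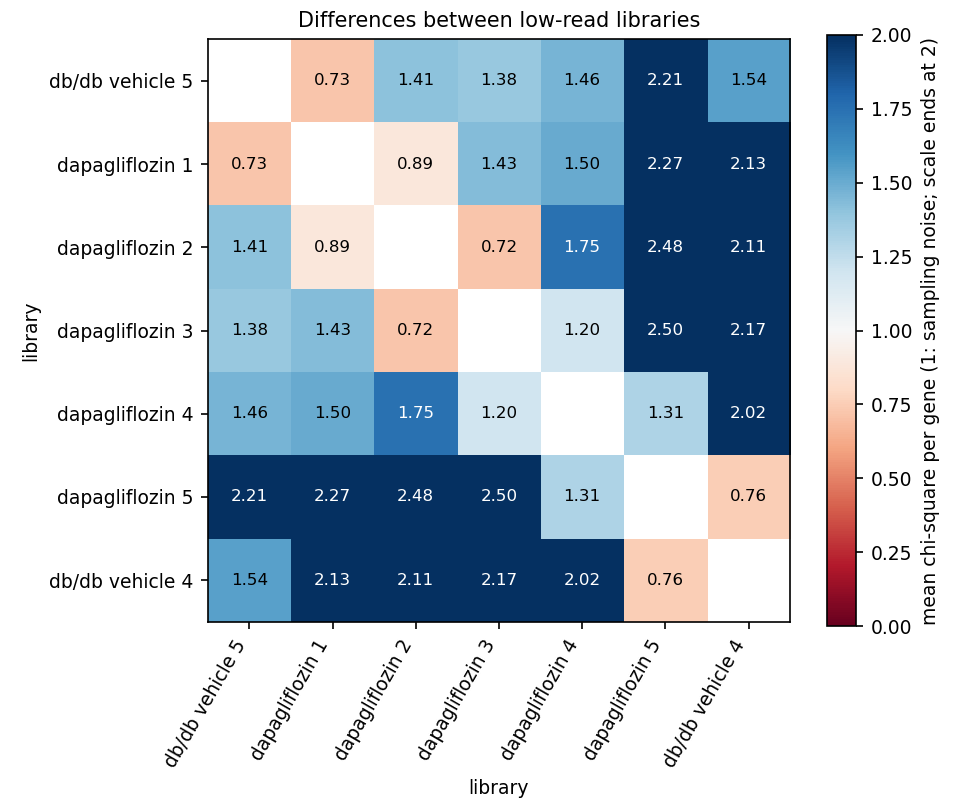
Mean chi-square per gene between each pair of the 7 low-read libraries, over genes with a mean of 20 to 99 reads; 1 is sampling noise and the colour scale ends at 2. The pairs below 1 lie next to the diagonal, and 2 of them join a db/db vehicle library to a dapagliflozin library (0.725 and 0.756).

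By genotype, the largest differences among the 9 genes went in opposite directions. Ace and Mme were lower in db/db vehicle 1 to 3 than in m/m, and Agt, Atp6ap2 and Enpep were higher. Ren1, Agtr1a and Nr3c2 did not pass the test. Of the 9 genes 8 reached the filter of a mean of 0.5 FPKM, and 5 were called (3 higher, 2 lower), where 37.8% of all tested genes were called in either direction, 29.5% higher and 8.31% lower. The median log2 fold change of the 8 genes was 0.02, beside 0.16 over all tested genes. Under dapagliflozin 0 of the 8 genes were called by limma, where 0.28% of all tested genes were (0.132% higher, 0.148% lower), and 1 of the 8 had an unadjusted p under 0.05. All fold changes are differences of log2(FPKM + 1), which makes the change of low genes look smaller than it is, and an adjusted p is from limma with Benjamini-Hochberg adjustment over all tested genes.

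**Figure D2:**
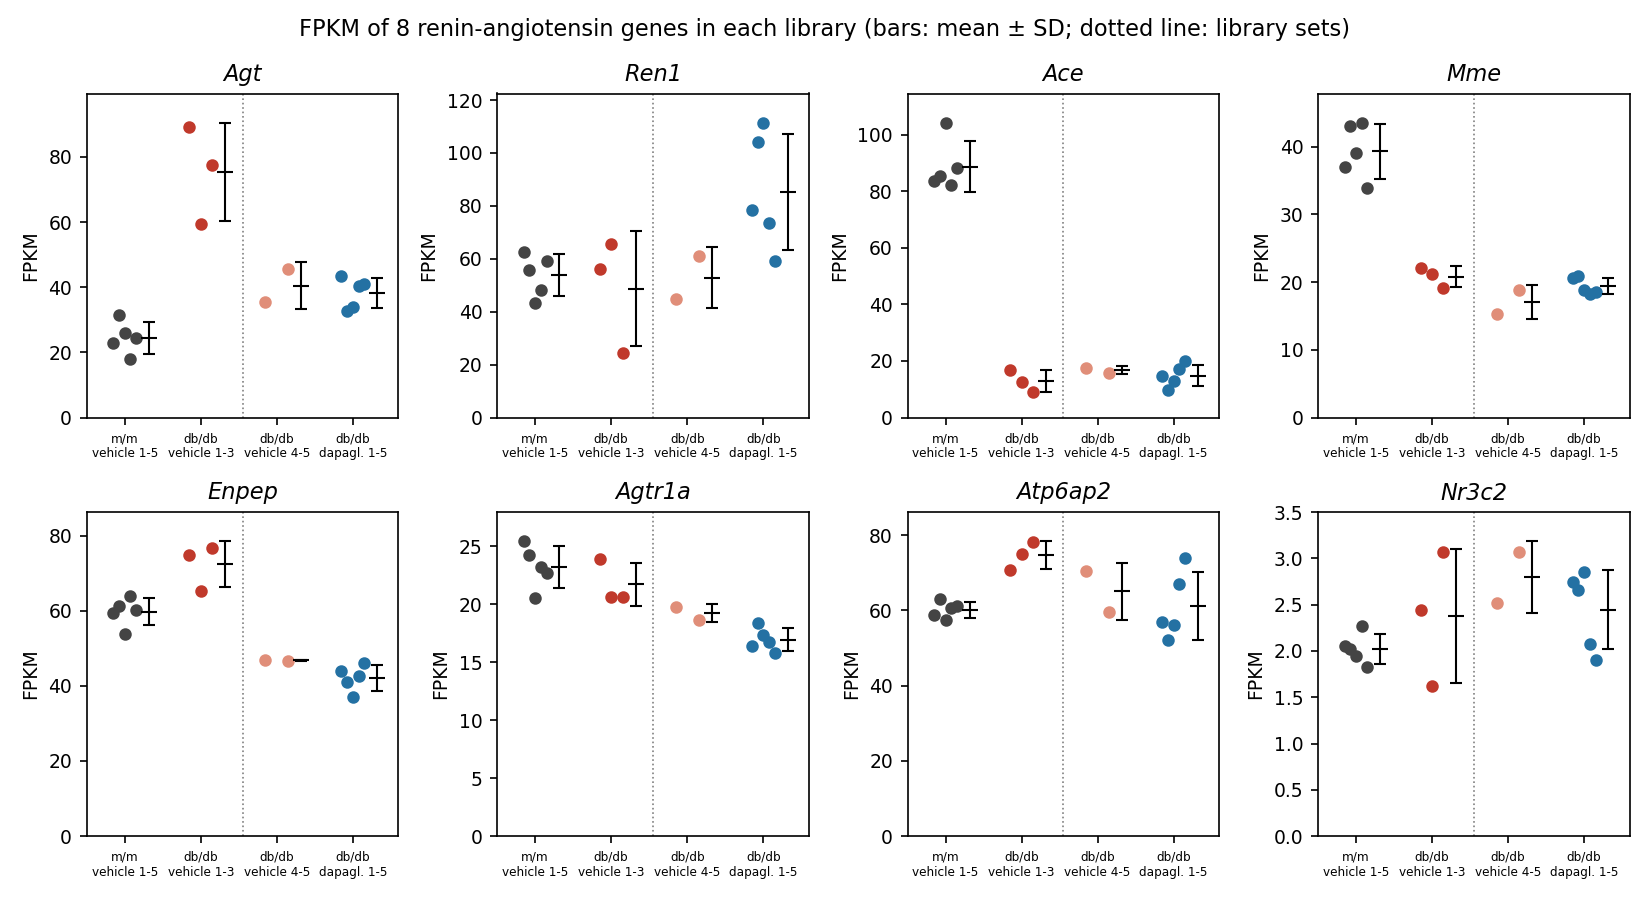
FPKM of 8 genes in each library, with a point per library and the mean ± SD beside each group; the y axes start at 0 and the dotted line parts the high-read from the low-read libraries. Ace lies at 82.2 FPKM or more in every m/m library and at 16.8 FPKM or less in db/db vehicle 1 to 3.

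The upstream sequences of Ace and Agt are shown because these genes had the largest fall and the largest rise among the members. They are the 250 bases before a RefSeq transcript start in the GRCm38.p6 build, 5′ to 3′ on the gene's strand, and capitals mark the 2 motifs searched on both strands, the TATA box core TATAAA and the GC box GGGCGG, whose matches can overlap each other. RefSeq lists 2 starts for Ace, which encode the long somatic enzyme and the short testis enzyme. The gene-level FPKM cannot tell them apart.
Ace, upstream start, chr11:105967698-105967947, plus strand: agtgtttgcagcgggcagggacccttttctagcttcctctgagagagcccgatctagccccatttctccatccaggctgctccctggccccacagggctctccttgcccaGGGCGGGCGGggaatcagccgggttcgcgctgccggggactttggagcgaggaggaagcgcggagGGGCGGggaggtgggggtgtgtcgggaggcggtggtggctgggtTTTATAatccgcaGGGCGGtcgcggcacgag
Ace, downstream start, chr11:105974939-105975188, plus strand: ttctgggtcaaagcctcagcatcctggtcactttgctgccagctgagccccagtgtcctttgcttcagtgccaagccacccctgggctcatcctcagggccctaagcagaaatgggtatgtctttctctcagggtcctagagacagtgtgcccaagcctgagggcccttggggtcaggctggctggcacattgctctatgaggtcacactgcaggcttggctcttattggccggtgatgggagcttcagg
Agt, chr8:124569707-124569956, minus strand: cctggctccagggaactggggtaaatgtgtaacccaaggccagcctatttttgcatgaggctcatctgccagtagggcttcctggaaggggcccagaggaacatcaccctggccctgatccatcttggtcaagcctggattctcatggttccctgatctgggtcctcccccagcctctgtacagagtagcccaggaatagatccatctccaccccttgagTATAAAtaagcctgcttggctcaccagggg
The upstream Ace window held 1 TATAAA match, on the minus strand, and 4 GGGCGG matches, of which 2 overlap. The downstream window held neither motif, and the Agt window held 1 TATAAA match 30 bases before the start (position -30). Of the 9 genes 8 had a window in RefSeq (11 windows in all). TATAAA occurred in windows of 5 of these genes and GGGCGG in windows of 4, where a gene with up to 3 windows counts once. Of all 32851 RefSeq windows, each counted singly, 12.4% and 32.7% hold them, so the 2 measures are in different units. A match is a run of letters and was not tested as a binding site.

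Agt, the substrate of renin and, in the kidney, a product of the proximal tubule, was higher in the diabetic kidneys. Its FPKM in the m/m libraries 1 to 5 was 22.8, 31.4, 26.0, 17.9 and 24.4. In db/db vehicle 1 to 3 it was 89.3, 59.4 and 77.4. The lowest db/db library lay well above the highest m/m library, and the groups did not overlap. The mean rose from 24.5 ± 4.89 (SD, n = 5) to 75.4 ± 15.1 FPKM (SD, n = 3), a log2 fold change of 1.58 (SE 0.16, 95% interval 1.23 to 1.94, adjusted p = 1.09e-05 by limma). Of all tested genes, 77 had a log2 fold change at least as high. The values rest on 531 to 2741 reads per library. Liver, the main source of circulating angiotensinogen, has markers in the table as well. Of 3 tested liver markers 1 was higher, Serpina1a, from 29.7 to 51.5 FPKM, beside 29.5% of all tested genes. The summed level of the list, most of it Serpina1a, was 24.4 to 38.3 FPKM in m/m and 52.3 to 59.6 FPKM in db/db vehicle 1 to 3. Albumin (Alb), at means of 2.88 and 4.86 FPKM, was not called (adjusted p = 0.37 by limma), nor was Apoa1 (adjusted p = 0.581 by limma). Tat was at 0 in every m/m library. Their part in the rise of Agt was not tested.

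In the low-read libraries Agt was lower than in the deep db/db libraries. It was 35.4 and 45.5 FPKM in db/db vehicle 4 and 5, a log2 difference of -0.87 from db/db vehicle 1 to 3 within the same group (adjusted p = 0.00215 by limma). This is a difference between library sets, in which 3 of the 8 members and 42.3% of all tested genes were lower and 18.8% higher. In dapagliflozin 1 to 5 Agt was 43.4, 32.8, 33.9, 40.4 and 41.0 FPKM, which overlapped the vehicle pair. Under the drug the log2 fold change was -0.03 (95% interval -0.44 to 0.39, adjusted p = 0.978 by limma), and -0.13 without dapagliflozin 1 and 5 (adjusted p = 0.806).

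Ren1, which encodes renin, the enzyme of the first and rate-limiting cut, did not pass the test between genotypes. The m/m libraries held 62.7, 55.9, 43.4, 48.1 and 59.2 FPKM, and db/db vehicle 1 to 3 held 56.2, 65.7 and 24.3 FPKM. Db/db vehicle 1 lay within the m/m range, vehicle 2 just above it and vehicle 3 far below it. Their log2 fold change was -0.25 (95% interval -0.83 to 0.33, adjusted p = 0.498 by limma), an interval that holds changes of either sign. Without db/db vehicle 3 it was 0.18 (adjusted p = 0.526 by limma), the opposite sign. Some mouse strains carry a near-identical second renin gene, Ren2, which was not analysed here. The labels do not say whether this strain carries it, and reads from such a copy could fall on Ren1.

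Ren1 gave the highest fitted drug value of the members. It was 44.9 and 61.0 FPKM in db/db vehicle 4 and 5 (127 and 164 reads) and 78.5, 104, 111, 73.6 and 59.0 FPKM in dapagliflozin 1 to 5 (192 to 254 reads). Dapagliflozin 1 to 4 lay above both vehicle libraries, and dapagliflozin 5 lay between them. At a log2 fold change of 0.56 (95% interval -0.12 to 1.25, adjusted p = 0.496 by limma) the drug difference did not pass the test. Without dapagliflozin 1 and 5, the libraries nearest to a vehicle library, the log2 fold change was 0.76 (adjusted p = 0.278 by limma). In that fit the mean of dapagliflozin 2 and 3, the highest libraries, is 1 of 2 drug samples. Without dapagliflozin 2 and 3 it was 0.41 (adjusted p = 0.642 by limma).

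Ace, the converting enzyme, which lines the brush border of the mouse proximal tubule and the vascular endothelium, showed the largest change of the 9 genes. In the m/m libraries 1 to 5 it was at 83.6, 85.2, 104, 82.2 and 88.1 FPKM, and in db/db vehicle 1 to 3 at 16.8, 12.4 and 9.05 FPKM. Every db/db library lay far below every m/m library, with 687 to 1366 reads against 6455 to 8160. The mean fell from 88.7 ± 8.93 (SD, n = 5) to 12.8 ± 3.89 FPKM (SD, n = 3), which is 6.67-fold lower on the log2(FPKM + 1) scale (log2 fold change -2.74, SE 0.18, 95% interval -3.12 to -2.36, adjusted p = 1.92e-07 by limma). Only 16 tested genes, Ace included, had a log2 fold change this low or lower. The exons of Ace overlap those of a predicted gene on the opposite strand, Gm11651, in the GENCODE annotation of GRCm38. The strand setting of the authors' counting is not given, so reads of the 2 genes may be mixed.

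Markers of the 2 cell types that carry Ace differed in how many were called by genotype. Of 9 proximal tubule markers 6 were lower and 1 higher by genotype (median log2 fold change -0.37), beside 8.31% and 29.5% of all tested genes. Slc7a13 fell most, from 457 to 41.1 FPKM (-3.60, adjusted p = 3.30e-06 by limma), and the higher marker was Slc4a4 (247 to 311 FPKM). The summed level of the list was 4651 to 5189 FPKM in m/m and 3196 to 4356 FPKM in db/db vehicle 1 to 3. Slc34a1 alone had means of 2512 and 1966 FPKM. Of 5 endothelial markers 2 were higher and 0 lower, near the shares of 29.5% and 8.31% over all tested genes. Their sums of 77.3 to 84.1 FPKM in m/m and 72.5 to 97.9 FPKM in db/db vehicle 1 to 3 overlapped. Kdr (-0.10) and Emcn (-0.07) had values below 0. The part of these shifts in the fall of Ace was not tested. In bulk kidney, fewer cells of a type and less RNA per cell cannot be told apart.

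The low-read db/db libraries held Ace at overlapping levels with and without the drug. It was 17.7 and 15.8 FPKM in db/db vehicle 4 and 5 and 14.6, 9.92, 12.8, 17.1 and 19.8 FPKM in dapagliflozin 1 to 5, on 85 to 232 reads. The vehicle pair lay inside the range of the drug group. The log2 fold change under dapagliflozin was -0.11 (95% interval -0.56 to 0.34, adjusted p = 0.887 by limma) and -0.24 without dapagliflozin 1 and 5 (adjusted p = 0.597 by limma). In the low-read set the lowest Ace values, in dapagliflozin 2 and 3, came from the same libraries as the highest Ren1 values; these 2 libraries count as 1 sample.

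The genes whose pattern was most like that of Ace over the 15 libraries, after centring log2(FPKM + 1) within each library set, were Acy3, Atp11a and Ldhd. Acy3 encodes aminoacylase 3, Atp11a a phospholipid flippase and Ldhd a D-lactate dehydrogenase. Their root mean square differences from Ace were 0.228, 0.254 and 0.281, beside a spread of 1.00 of Ace itself around its set means. Acy3 went from 2313 to 461 FPKM by genotype, Atp11a from 176 to 29.0 and Ldhd from 408 to 97.2 (means of m/m 1 to 5 and db/db vehicle 1 to 3). These genes were picked by likeness to Ace, so their falls by genotype follow largely from the choice.

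Agtr1a, the main type 1 angiotensin receptor of the mouse kidney, did not pass the test by genotype. The m/m libraries held 25.4, 24.2, 20.5, 23.2 and 22.7 FPKM and db/db vehicle 1 to 3 held 23.9, 20.6 and 20.6 FPKM. The db/db values lay inside the m/m range, and the log2 fold change was -0.09 (95% interval -0.25 to 0.07, adjusted p = 0.351 by limma). With median-of-ratios scaling, which takes the median of all genes from 0.16 to 0.00, it was -0.30 and passed the test (adjusted p = 0.0107 by limma).

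Under dapagliflozin Agtr1a lay at 16.4, 18.3, 17.4, 16.7 and 15.8 FPKM, and at 19.8 and 18.6 FPKM in db/db vehicle 4 and 5. Each drug library was below both vehicle libraries, although by less than 1 FPKM at the nearest point, on 68 to 96 reads per library. It was the member with an unadjusted p under 0.05, with a log2 fold change of -0.19 (95% interval -0.38 to -0.003), but it did not pass the test over all genes (adjusted p = 0.387 by limma). Without dapagliflozin 1 and 5 the log2 fold change was -0.14 (adjusted p = 0.466 by limma).

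Agtr1b, the second mouse copy of the type 1 receptor, was at the limit of detection. It had 1, 0, 1, 1 and 2 reads in the m/m libraries, 0, 3 and 0 in db/db vehicle 1 to 3, and 0 in each of the 7 low-read libraries. A floor of 3 reads allows up to 0.0850 to 0.0942 FPKM in the high-read and 0.611 to 0.872 FPKM in the low-read libraries, for counting error only. No difference was detectable at this depth. The coding sequences of the 2 receptors are close, so a few reads may belong to the other copy.

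Of the receptors of the opposing arm, Agtr2 (the type 2 receptor) had 0 or 1 read in every library. Mas1, the receptor of angiotensin-(1-7), was below the filter. It was 0.715, 0.569, 0.784, 0.420 and 0.881 FPKM in m/m (44 to 99 reads) and 0.295, 0.0589 and 0.148 FPKM in db/db vehicle 1 to 3 (6 to 32 reads). These groups did not overlap. In the fit with no filter its log2 fold change was -0.52 (95% interval -0.82 to -0.21, adjusted p = 0.0166 by limma). In the low-read libraries it rested on 2 to 11 reads. There it was 0.589 and 0.388 FPKM in db/db vehicle 4 and 5, and 0.147 to 0.962 FPKM under dapagliflozin. The vehicle pair thus lay above db/db vehicle 1 to 3, a difference between library sets within 1 group.

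Mme encodes neprilysin, a brush-border and podocyte endopeptidase that makes angiotensin-(1-7) from angiotensin I and degrades natriuretic peptides. It was 37.0, 43.1, 39.1, 43.5 and 33.9 FPKM in m/m and 22.1, 21.2 and 19.1 FPKM in db/db vehicle 1 to 3. The groups were far apart, on 1903 to 4543 reads. The mean fell from 39.3 ± 4.07 (SD, n = 5) to 20.8 ± 1.54 FPKM (SD, n = 3), a log2 fold change of -0.88 (SE 0.09, 95% interval -1.08 to -0.69, adjusted p = 1.10e-05 by limma). All 4 podocyte markers were higher in the same comparison, beside 29.5% of all tested genes. Of 9 proximal tubule markers 6 were lower, as given above. The part of these markers in this fall was not tested.

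In the low-read set Mme was 15.3 and 18.8 FPKM in db/db vehicle 4 and 5 and 20.6, 20.9, 18.9, 18.3 and 18.6 FPKM in dapagliflozin 1 to 5. The drug libraries overlapped the higher vehicle library, and the log2 fold change was 0.18 (95% interval -0.05 to 0.41, adjusted p = 0.534 by limma), and 0.16 without dapagliflozin 1 and 5 (adjusted p = 0.52). By pattern, after centring within each library set, Mme was most like Fhl1, Edem1 and B3gat2 over the 15 libraries. Their root mean square differences were 0.105, 0.109 and 0.113, beside a spread of 0.336 of Mme itself. By genotype Fhl1 went from 83.4 to 41.5 FPKM, Edem1 from 25.9 to 14.7 and B3gat2 from 25.2 to 13.1. Since they were picked by likeness to Mme, these falls follow largely from the choice. Centring hides shifts between sets. In db/db vehicle 4 and 5 their means were 16.1, 10.1 and 127 FPKM, beside 17.0 FPKM for Mme.

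Enpep, aminopeptidase A, which trims angiotensin II to angiotensin III at the same brush border, was slightly higher in db/db, unlike Ace and Mme. It was 59.5, 61.4, 53.9, 63.9 and 60.1 FPKM in m/m and 74.8, 65.3 and 76.8 FPKM in db/db vehicle 1 to 3. The groups did not overlap, but they were separated by 1 library lying close to the m/m range. Their log2 fold change was 0.27 (95% interval 0.12 to 0.42, adjusted p = 0.0102 by limma), not far above the median of 0.16 over all genes. The call ended with median-of-ratios scaling (0.05, adjusted p = 0.56) and without db/db vehicle 3 (0.23, adjusted p = 0.0586 by limma).

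Between library sets Enpep moved more than between genotypes, from a mean of 72.3 FPKM in db/db vehicle 1 to 3 to 46.8 FPKM in vehicle 4 and 5 (log2 difference -0.61, adjusted p = 4.64e-05 by limma). In the drug group it was 43.9, 41.0, 37.1, 42.7 and 46.1 FPKM, and both vehicle libraries, at 46.9 and 46.7 FPKM, lay just above that range, with a log2 fold change of -0.12 (95% interval -0.31 to 0.06, adjusted p = 0.596 by limma). Without dapagliflozin 1 and 5 it was -0.19 (adjusted p = 0.275 by limma).

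Atp6ap2 encodes the prorenin receptor, which is also an accessory subunit of the vacuolar proton pump. It was 58.7, 63.1, 57.6, 60.6 and 61.1 FPKM in m/m and 70.7, 75.1 and 78.1 FPKM in db/db vehicle 1 to 3. All 3 db/db libraries lay above the m/m libraries. The log2 fold change was 0.30 (95% interval 0.11 to 0.50, adjusted p = 0.0189 by limma). It was 0.09 with median-of-ratios scaling (adjusted p = 0.379), and the call also ended without db/db vehicle 2 (limma, adjusted p = 0.0522) or without vehicle 3, with an adjusted p of 0.0796.

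Under the drug Atp6ap2 was 56.9, 52.2, 56.1, 67.0 and 73.9 FPKM, beside 70.5 and 59.7 FPKM in db/db vehicle 4 and 5. The ranges overlapped widely, and the log2 fold change was -0.05 (95% interval -0.29 to 0.18, adjusted p = 0.896 by limma). Leaving out dapagliflozin 1 and 5 gave -0.11 (adjusted p = 0.617 by limma).

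Nr3c2, the mineralocorticoid receptor, was the lowest of the genes that passed the filter. It was 2.05, 2.02, 1.94, 2.27 and 1.83 FPKM in m/m and 2.44, 1.62 and 3.07 FPKM in db/db vehicle 1 to 3. The db/db values lay on both sides of the m/m range. Its log2 fold change was 0.14 (95% interval -0.15 to 0.43, adjusted p = 0.44 by limma), and its sign turned with median-of-ratios scaling (-0.01), quantile normalization (-0.12) or without db/db vehicle 3. Its exons overlap those of the predicted gene Gm10649 on the opposite strand.

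In the low-read set Nr3c2 was 2.52 and 3.07 FPKM in db/db vehicle 4 and 5 and 2.74, 2.66, 2.85, 2.08 and 1.90 FPKM in dapagliflozin 1 to 5, on 37 to 52 reads. Dapagliflozin 4 and 5 lay below the vehicle pair and the other drug libraries within its range. The log2 fold change was -0.18 (95% interval -0.52 to 0.17, adjusted p = 0.704 by limma), and -0.16 without dapagliflozin 1 and 5 (adjusted p = 0.674).

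**Figure D3:**
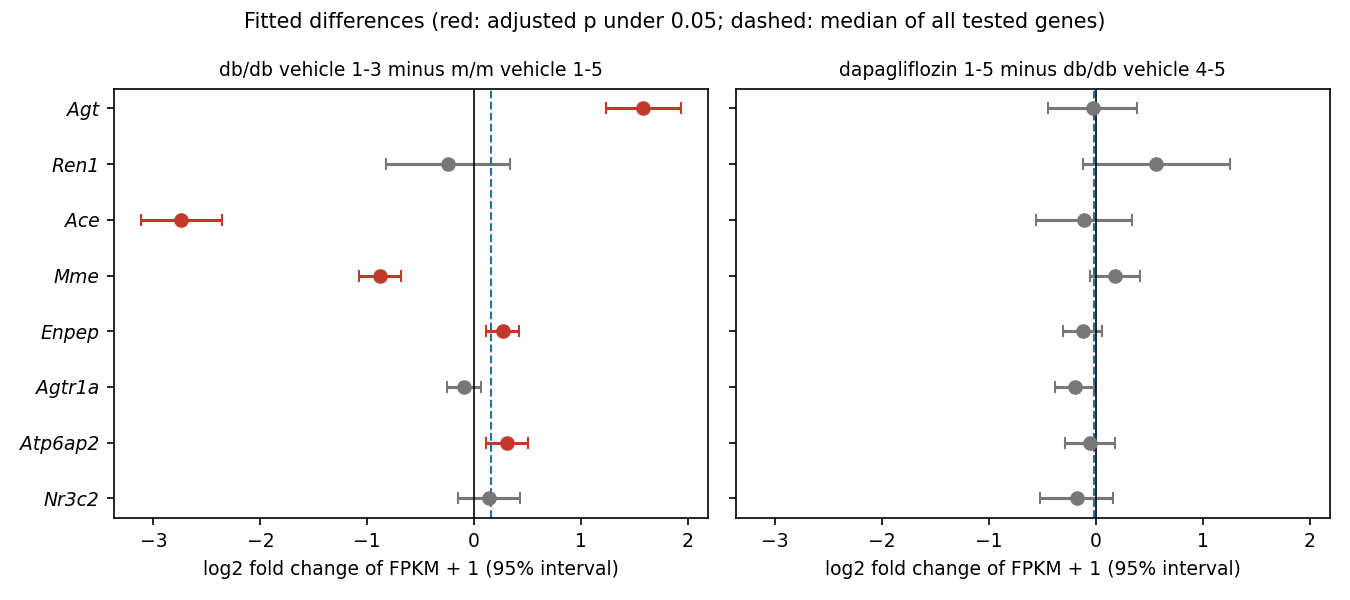
Log2 fold changes of log2(FPKM + 1) with 95% intervals for the 8 tested genes, by genotype (left) and by drug (right); red marks an adjusted p under 0.05 and the dashed line the median of all tested genes. By genotype Ace (-2.74) and Agt (1.58) lie farthest from 0, and by drug 0 of the 8 genes are called.

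The order of the levels, which FPKM gives per length of transcript, differed between the groups. In m/m Ace stood first with a mean of 88.7 FPKM, apart from Atp6ap2 (60.2), Enpep (59.8) and Ren1 (53.9), whose ranges overlapped each other. Mme (39.3), whose highest library just overlapped the lowest of Ren1, came next, followed by Agt (24.5) and Agtr1a (23.2), which did not differ beyond their spread, and by Nr3c2 (2.02). In db/db vehicle 1 to 3 Agt (75.4), Atp6ap2 (74.6) and Enpep (72.3) led with overlapping ranges, followed by Ren1 (48.7). Agtr1a (21.7) and Mme (20.8) overlapped, and Ace (12.8) stood seventh, apart from both neighbours. The ratio of Agt to Ace was 0.218 to 0.368 in m/m and 4.78 to 8.55 in db/db vehicle 1 to 3.

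The genes most like Agt over the 15 libraries were Mgll (monoacylglycerol lipase), Slc25a20 (the carnitine-acylcarnitine carrier of mitochondria) and Sulf2 (a heparan sulfate sulfatase). Their root mean square differences from Agt were 0.178, 0.180 and 0.187, beside a spread of 0.60 of Agt itself around its set means. Mgll went from 8.21 to 24.7 FPKM, Slc25a20 from 24.9 to 66.1 and Sulf2 from 4.98 to 14.7 by genotype (means of m/m 1 to 5 and db/db vehicle 1 to 3). As they were picked by likeness to Agt, their rises by genotype follow largely from the choice.

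Of 20 other peptidases and receptors that handle angiotensin peptides, 17 were in the table and 12 were tested. By genotype 2 of these were higher and 1 lower, beside 29.5% higher and 8.31% lower over all tested genes, with a median log2 fold change of 0.04 beside 0.16 over all tested genes. With median-of-ratios scaling 1 was higher and 4 were lower. Klk1, tissue kallikrein, rose from 948 to 1511 FPKM (log2 fold change 0.67, adjusted p = 0.00101), and prolyl endopeptidase Prep rose from 10.04 to 13.6 FPKM (0.40, adjusted p = 0.00264). Endothelin-converting enzyme Ece1 fell from 22.6 to 15.9 FPKM (-0.48, adjusted p = 0.00226 by limma). The Klk1 family has close copies, so its value is uncertain, and both rises missed the test when the library sets were pooled. Prep also missed it with median-of-ratios scaling (0.20, adjusted p = 0.0822 by limma).

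Among genes that regulate renin or partner the receptors, 9 of 19 tested were higher and 1 lower, beside the same 29.5% and 8.31% over all tested genes. Their median log2 fold change was 0.30. The list was chosen with earlier results of these data known, so the share over all genes is not its chance level. The counts were 7 and 2 with median-of-ratios scaling and 5 and 1 with quantile normalization. The lower call was lost without m/m 1, 2 or 3 or without db/db vehicle 2 or 3. Adcy6, an adenylyl cyclase of the renin cell, rose from 11.1 to 18.6 FPKM (0.70, adjusted p = 5.02e-06), and Pde3b, a phosphodiesterase that breaks down cyclic AMP, from 3.51 to 5.99 FPKM (0.63, adjusted p = 4.66e-05 by limma). Npr1, the receptor of atrial natriuretic peptide, rose from 5.50 to 9.91 FPKM (0.75, adjusted p = 3.30e-05), and the homeobox gene Hoxd10 from 3.67 to 6.34 FPKM (0.65, adjusted p = 0.000488 by limma). Adcy6, Npr1 and Hoxd10 each overlap the exons of a predicted gene. Beside these, 7 of 8 markers of smooth muscle, mesangium and pericytes were higher, with sums of 37.8 to 43.1 FPKM in m/m and 58.4 to 90.4 FPKM in db/db vehicle 1 to 3. Their part in these rises was not tested.

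Partners and targets of the mineralocorticoid and glucocorticoid receptors were called higher in 13 of 19 cases and lower in 2, beside 29.5% and 8.31% of all tested genes, while Nr3c2 itself did not pass the test. Their median log2 fold change was 0.59. This list too was chosen with earlier results of these data known, so the share over all genes is not its chance level. With median-of-ratios scaling 10 were higher and 3 lower, and of all 12869 tested genes 1487 and 2317. The kinase Sgk1 rose from 10.9 to 35.8 FPKM (1.62, adjusted p = 0.000142), and the sodium channel subunit Scnn1a from 25.0 to 49.2 FPKM (0.95, adjusted p = 2.65e-06 by limma). The thiazide-sensitive cotransporter Slc12a3 rose from 166 to 338 FPKM (1.02, adjusted p = 5.88e-05 by limma). Hsd11b1, whose enzyme regenerates active glucocorticoid, fell from 107.9 to 27.6 FPKM (-1.88, 95% interval -2.45 to -1.31, adjusted p = 0.000144 by limma). The other lower gene, outside the naming rule and chosen after its values were seen, was the glucocorticoid receptor Nr3c1 (18.8 to 15.3 FPKM, -0.28, adjusted p = 0.0168 by limma). Its call was lost with the replicate block and without db/db vehicle 2.

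Markers of the segments that hold these transporters moved the same way. All 3 distal convoluted tubule markers, of which Slc12a3 is 1, and 3 of 4 principal cell markers were higher, beside 29.5% of all tested genes. Their median log2 fold changes were 0.81 and 0.60, beside 0.16 over all tested genes. The distal convoluted sums were 172 to 238 FPKM in m/m and 336 to 465 FPKM in db/db vehicle 1 to 3. Sgk1 was 9.87 to 12.2 FPKM in the m/m libraries and 37.5, 28.1 and 41.6 FPKM in db/db vehicle 1 to 3, but 12.1 and 12.2 FPKM in db/db vehicle 4 and 5. The part of segment markers and of the library set in these values was not tested.

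**Figure D4:**
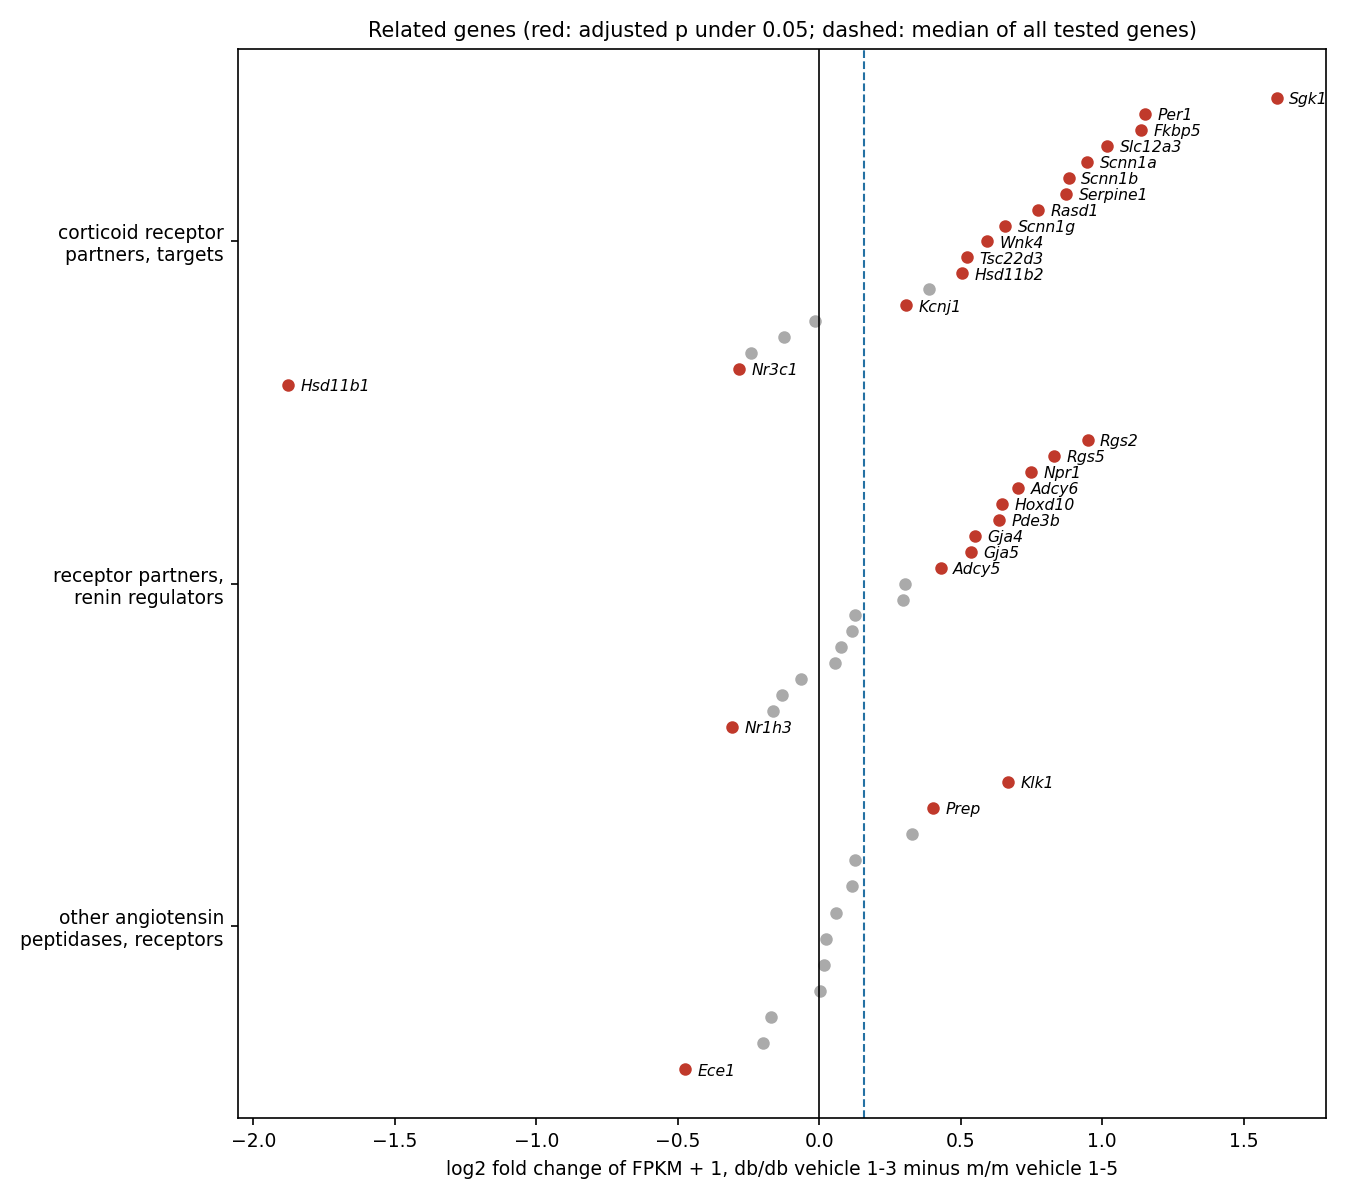
Log2 fold changes of log2(FPKM + 1), db/db vehicle 1 to 3 minus m/m 1 to 5, for the tested genes of 3 related lists, with a point per gene sorted within its list; red marks an adjusted p under 0.05 and the dashed line the median of all tested genes. In the corticoid receptor list 13 of 19 genes are called higher, in the list of renin regulators 9 of 19, and among the other peptidases and receptors 2 of 12.

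Under dapagliflozin 0 genes of these 3 lists were called by limma, with median log2 fold changes of 0.06, 0.07 and 0.04 beside -0.02 over all tested genes. Without dapagliflozin 1 and 5, 1 gene of the corticoid receptor list was called higher, and with all libraries pooled by group 1 of the other peptidases and receptors was called lower. Slc5a2, which encodes the drug's target SGLT2, was 528 and 524 FPKM in db/db vehicle 4 and 5 and 547 to 609 FPKM under the drug. It overlaps the exons of BC017158. The 36 genes called by drug among all tested genes rest on a spread shared with the high-read libraries; fitted on the 7 libraries compared alone, 0 genes were higher and 1 was lower. On simulated data with no drug effect the shared fit called more genes by drug than it did here. The fit on the compared libraries alone called none there. The simulated libraries were independent, with the same spread setting for every gene. Some low-read pairs here were closer than independent sampling gives, so the simulated number of calls does not carry over. Given the fit on the compared libraries alone, the 36 calls are not read as drug differences. The drug intervals and p-values of the members come from the same shared fit.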

How the data were processed

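Kidney RNA was made into TruSeq stranded mRNA libraries, per the labels' protocols. The authors deposited FPKM values of 17832 genes in 15 libraries as 1 table. The tools listed in the submitters' processing notes are HISAT2, Cufflinks, HTSeq and Trimmomatic, on build GRCm39, with no versions or settings in the sources used here. The members and gene lists were chosen with earlier results of these data known. Reads per gene were recovered from the steps of the FPKM values (100% whole at a relative tolerance of 1e-08) and used for depth and for comparing libraries. Tests used limma 3.58.1 in R 4.3.3 with an intensity trend on log2(FPKM + 1), 2-sided, over 12869 genes (mean FPKM 0.5 or more), in 1 fit of 4 group-by-set means over 14 samples. P-values were adjusted by Benjamini-Hochberg and called under 0.05. Low-read libraries are thus taken to vary like the others, and the steps were tested on simulated data. Named genes are the 9 members, up to 4 called genes of each list by smallest adjusted p, Agtr2, Mas1, Lepr and Slc5a2, and for the 3 members with the largest genotype change the 3 tested genes of most like pattern, predicted genes left out. Some planned genes, and the results that need them, are not reported here. Overlaps of exons come from GENCODE M21 (GRCm38), by symbol. Alternatives were other pseudocounts (0.1, 0.5), filters (none, 2 FPKM), scalings, weights, pooling, averaging, a replicate block, fits of only the libraries compared and each library left out. Intervals and floors from reads cover counting error only.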

Additional observations from a re-analysis of the deposited data

Results flagged for a closer look

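Ace in m/m 3, at 104.2 FPKM, stood apart from the other 4 m/m libraries, with a gap of 0.732 of the group's range. Of 18 groups of 4 or more values examined, 1 stood apart in this way, and chance gives about 1 in 20. Without m/m 3 the log2 fold change of Ace by genotype was -2.68 (adjusted p = 9.75e-07 by limma).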

How the results depend on the processing

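Over the 19 alternatives of the genotype comparison, the calls of Ace (-2.94 to -2.53), Agt (1.24 to 1.74) and Mme (-1.09 to -0.83) held in direction and threshold. The number of members called higher was 1 with median-of-ratios scaling, 1 with all libraries pooled by group and 1 to 3 with each library left out (1 without db/db vehicle 3); Enpep and Atp6ap2 are the calls lost. Among all genes the number higher and lower was 1487 and 2317 with median-of-ratios scaling and 1586 and 1745 with quantile normalization, where the median of all genes moved from 0.16 to 0.00, and 2097 were higher when pooled. Uncalled values near 0 changed sign. Nr3c2 was -0.0110 with median-of-ratios scaling, -0.12 with quantile normalization and -0.00687 to 0.31 with libraries left out. Ren1 was -0.52 to 0.18 with libraries left out. The causes were not tested.

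Over the 21 alternatives of the drug comparison 0 members were called. Signs turned for Ace (0.13 pooled, 0.0268 without dapagliflozin 2 and 3), Agt (0.0499 without dapagliflozin 2 and 3, -0.20 to 0.15 with libraries left out) and Atp6ap2 (0.0182 with the replicate block, 0.0145 without dapagliflozin 2 and 3, -0.17 to 0.0646 with libraries left out). The numbers of all genes higher and lower by drug, 17 and 19 as fitted, were 64 and 158 with no filter, 10 and 9 at a mean of 2 FPKM, 27 and 22 with quantile normalization, 0 and 1 with array weights, with only the libraries compared and with the replicate block, 175 and 675 pooled, 28 and 41 with dapagliflozin 1, 2 and 3 averaged, 186 and 291 without dapagliflozin 1 and 5, 24 and 34 without 2 and 3, and 1 to 63 and 0 to 69 with libraries left out. The averaging of dapagliflozin 1, 2 and 3 and the omission of pairs of dapagliflozin libraries were chosen after seeing the data.

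Whether replicate numbers pair the libraries cannot be told from their correlations. The correlation of deviations from group-by-set means between same-numbered libraries was 0.381, 0.0538 and -0.00823 for m/m and db/db vehicle 1 to 3. It was -0.0535 and -0.724 for db/db vehicle and dapagliflozin 4 and 5. The deviations of db/db vehicle 4 and 5 mirror each other, since only these 2 libraries make up their mean. Differently numbered pairs were not compared. With the replicate block 3 members were higher and 2 lower by genotype, as without it. The 1.60 to 2.29 M reads per low-read library, with 37 to 96 of them on Nr3c2 or Agtr1a, limit what the drug comparison can detect. It is limited further by 2 vehicle libraries that each lie within sampling noise of a drug library among genes of 20 to 99 reads. Over all genes with at least 20 reads only db/db vehicle 5 and dapagliflozin 1 lie that close.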
